A study of Mus musculus with 8 samples.

Results

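The transcripts described here come from the mitochondrial chromosome of HL1 cells, a mouse line of atrial heart muscle origin. Every locus placed on chrM was taken from the deposited tables, which gave 10 of 65265 loci in the short-read gene table and 16 of 196683 transcripts in the long-read table. Each was assigned to the mitochondrial gene of GENCODE M21 that it overlaps on the same strand. The rule reads the chromosome alone and no measured value, although the topic was chosen with earlier results of these data known.

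HL1 cells were grown in Claycomb medium with serum, norepinephrine and ascorbic acid, nuclei were isolated with a detergent buffer, and the nuclei were extracted with urea and NP-40 substitute. The supernatant is the nucleoplasm fraction and the pellet is the chromatin fraction. Short reads of 50 bp were sequenced from 3 libraries of each fraction, taken from independent cultures of a single cell line, and long reads from 2 libraries of the chromatin fraction. All groups share the cell line, the growth medium and the removal of rRNA before library preparation. The rRNA kit differed, with Ribo-zero Gold for the short-read libraries and RiboMinus for the long-read libraries. One label names chromatin as the fraction of all short-read libraries, and the titles were used to tell the fractions apart. No whole-cell or cytoplasmic library was analysed here, so levels in both fractions are levels within isolated nuclei and what sedimented with them.

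Mitochondrial DNA is a small circle that is transcribed along nearly its whole length from promoters on both strands. The long precursor is cut, mostly at the tRNAs that lie between the other genes, into mRNAs for subunits of the respiratory chain, the 2 ribosomal RNAs and the tRNAs. In heart muscle, which depends on oxidative phosphorylation, these mRNAs are among the most abundant transcripts of the cell, and they are made and translated inside mitochondria, outside the nucleus.

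GENCODE M21 lists 37 genes on chrM (13 protein-coding genes, 2 rRNA genes and 22 tRNA genes), of which 28 are on the plus strand of the mm10 assembly and 9 on the minus strand. The 10 short-read loci, from an assembly that the authors guided with a reference annotation, covered all 13 protein-coding genes in full. Of these loci 9 lay on the plus strand and 1 on the minus strand. The minus-strand locus held mt-Nd6, the only protein-coding gene on that strand and a subunit of complex I (NADH dehydrogenase). No short-read locus lay on the rRNA genes mt-Rnr1 and mt-Rnr2, and none covered 50% or more of a tRNA gene.

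The boundaries of the loci followed the gene order of the annotation. As a reference annotation guided the assembly, these boundaries may come from it and are not a separate observation of transcript ends. The gap between mt-Co2 and mt-Atp8 held mt-Tk, the gap between mt-Co3 and mt-Nd3 held mt-Tg, and the gap between mt-Nd3 and mt-Nd4l held mt-Tr. These 3 tRNA genes are shown because each fills nearly all of the gap that divides its neighbours, with gaps of 69, 68 and 70 bases (GRCm38/mm10, plus strand, 5′ to 3′; chrM:7700-7764, chrM:9391-9458 and chrM:9808-9875).
mt-Tk: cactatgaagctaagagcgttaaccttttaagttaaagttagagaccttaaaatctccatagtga
mt-Tg: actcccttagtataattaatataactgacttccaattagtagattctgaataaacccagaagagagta
mt-Tr: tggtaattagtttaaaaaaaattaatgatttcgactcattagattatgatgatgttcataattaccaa

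Where genes of the same strand overlap with no tRNA between them, the table held a single locus. mt-Atp8 and mt-Atp6, both subunits of ATP synthase, share 43 bases, and they were reported with mt-Co3 as 1 locus of 1625 bases. mt-Nd4l and mt-Nd4, both subunits of complex I, share 7 bases and were reported as 1 locus of 1668 bases. The ends of the upstream genes are shown with the shared bases in capitals (mm10, plus strand; chrM:7910-7969 and chrM:10144-10173).
mt-Atp8 3′ end: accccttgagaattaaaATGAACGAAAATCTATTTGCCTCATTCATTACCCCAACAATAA
mt-Nd4l 3′ end: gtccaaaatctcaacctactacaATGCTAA

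The tail-to-tail pair mt-Nd5 and mt-Nd6 is the place where both strands can be compared. The genes share 14 bases, in capitals below (mm10; mt-Nd5 on the plus strand at chrM:13506-13565, mt-Nd6 on the minus strand at chrM:13552-13611). The mt-Nd5 locus ran from 11742 to 14070, past the end of mt-Nd5 at 13565. Its span thus includes the plus strand opposite the whole of mt-Nd6, where reads were not counted separately.
mt-Nd5 3′ end: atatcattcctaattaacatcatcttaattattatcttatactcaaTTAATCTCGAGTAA
mt-Nd6 3′ end: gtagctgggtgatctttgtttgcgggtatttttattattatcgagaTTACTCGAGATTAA

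Values are normalized counts, that is, read counts per gene from StringTie after division by the size factor that DESeq2 gave the library. Dividing each value by the smallest value above 0 of its library returned whole numbers for 100% of values in every library. These recovered counts are StringTie estimates for the loci of the table and not the number of reads sequenced. They summed to 100595246, 93400735 and 91657034 in the chromatin libraries, replicates 1 to 3. In the nucleoplasm libraries they summed to 102000472, 96684935 and 121773350. Differences between fractions were tested on log2(normalized count + 1) with limma, which was fitted to the 35830 loci with a value above 0 in any library, adjusted by Benjamini-Hochberg, and are given as chromatin minus nucleoplasm.

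The replicate 3 libraries stood apart from the others of their fraction in marker genes of cell types. Over all loci this held in chromatin, where the pairs with replicate 3 differed most (chi-square per locus 219 and 253, against 50.6 for replicates 1 and 2), but not in nucleoplasm, where replicates 1 and 2 differed most (2477, against 1449 and 737). Of 10 atrial cardiomyocyte marker genes, 8 had a locus with a matching symbol (Myh6 and Tnnt2 had none), and all 8 were lower in replicate 3 than in replicates 1 and 2 of the same fraction. Their summed normalized counts were 250134, 244728 and 136462 in chromatin and 132316, 141760 and 68405 in nucleoplasm, with Ryr2 the most abundant. Of 6 fibroblast marker genes, 5 were higher in replicate 3 than in replicates 1 and 2 in each fraction, and their sums were 120670, 135634 and 174007 in chromatin and 259205, 253853 and 461035 in nucleoplasm, nearly all of it Col1a1 and Col3a1. Of 4 endothelial markers, with Kdr the most abundant, and 4 macrophage markers, with Cd68 the most abundant, the defining genes Cdh5 and Adgre1 were at 0 in every library. The endothelial sums were 1708, 1828 and 1049 in chromatin and 2934, 2771 and 1755 in nucleoplasm. The macrophage sums were 77.2, 95.4 and 177 in chromatin and 76.8, 105 and 90.6 in nucleoplasm. The difference of each chrM locus, the library share, the strand balance and the counts of genes are therefore also given without the replicate 3 libraries.

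All 10 chrM loci were lower in chromatin than in nucleoplasm, by 3.63 to 11.7 fold, with adjusted p between 1.39e-04 and 0.00742 (limma, n = 3 per fraction). Of all loci tested, 20.9% were lower in chromatin at the same threshold and 26.9% were higher. More than 4 fold lower were 9 of the 10, against 4.90% of all loci tested. Among the 9121 loci with a mean of at least 1000 normalized counts, which are closer to the chrM loci in level, 43.3% were lower and the median log2 fold change was -0.21. In all 10 the 3 chromatin libraries lay below the 3 nucleoplasm libraries, which was the case for 23.8% of loci tested. The median log2 fold change of the 10 loci was -3.28, beside 0.38 over all loci tested. Without replicate 3 of both fractions all 10 were still lower, with log2 fold changes from -3.97 to -1.51 and a highest adjusted p of 0.00155 (limma, 2 libraries per fraction), when 25.4% of loci were lower. The difference was then 8.84 fold for mt-Nd1, 8.61 fold for mt-Nd2, 14.5 fold for mt-Nd5, 15.3 fold for mt-Cytb and 15.6 fold for mt-Nd4l/mt-Nd4. Every plus-strand locus thus differed more, and mt-Nd6 less, than with all libraries. In bulk RNA of a fraction, fewer mitochondria in the fraction and less RNA per mitochondrion cannot be told apart.

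**Figure D1:**
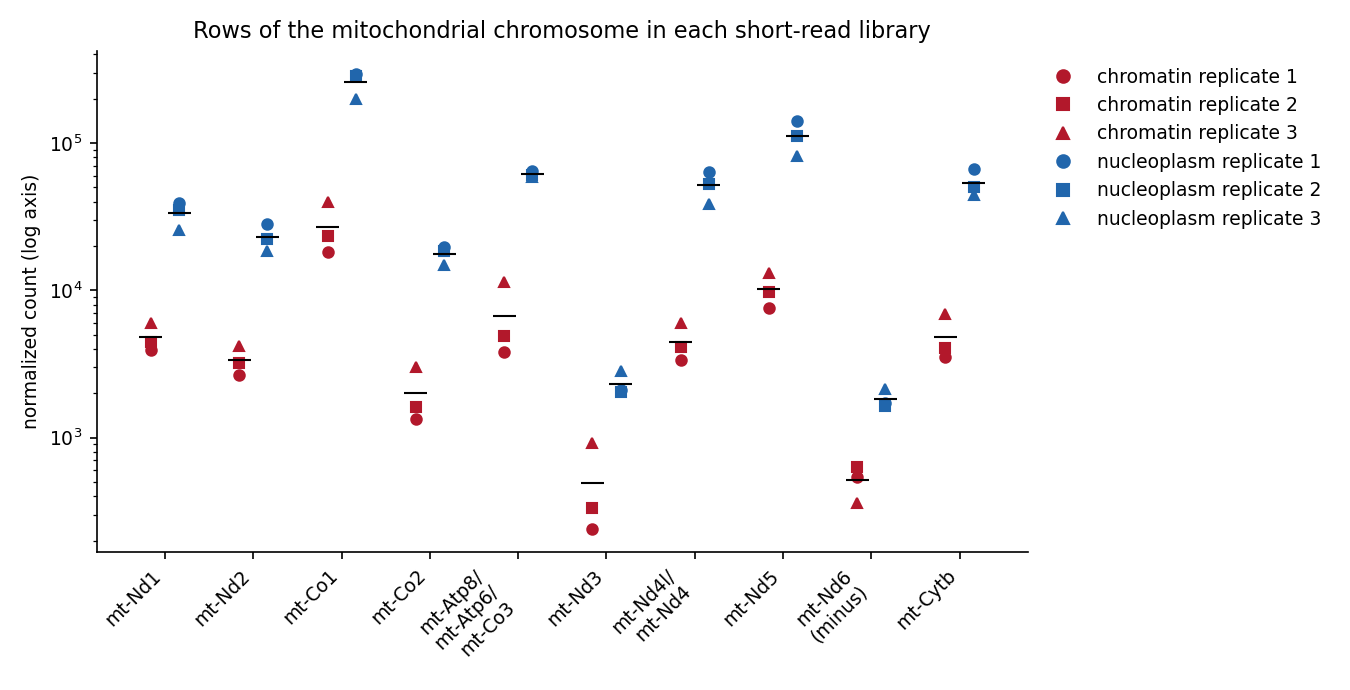
Normalized count (log axis) of the 10 chrM loci in each of 6 short-read libraries; points are libraries, shaped by replicate, and black bars are the means of 3. In every locus all chromatin points lie below all nucleoplasm points, and chromatin replicate 3 is the highest chromatin point on the 9 plus-strand loci and the lowest for mt-Nd6.

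Complex I genes were spread over 6 loci. mt-Nd1, which encodes a core membrane subunit of complex I (MSTRG.19708, chrM:2751-3707), had normalized counts of 3958, 4463 and 6032 in chromatin and 39445, 34982 and 25838 in nucleoplasm. The log2 fold change was -2.80 ± 0.22 (SE, adjusted p = 1.53e-04, limma). mt-Nd2, the neighbouring complex I subunit (MSTRG.19709, chrM:3914-4951), gave 2646, 3210 and 4215 in chromatin and 28360, 22223 and 18495 in nucleoplasm, a log2 fold change of -2.78 ± 0.23. These neighbours had the smallest differences among the plus-strand loci apart from mt-Nd3, and in both the lowest nucleoplasm library was more than 4 fold above the highest chromatin library (4.28 and 4.39 fold).

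mt-Nd3, a short complex I gene (MSTRG.19713, chrM:9459-9806), was the lowest plus-strand locus, with 240, 331 and 914 in chromatin and 2096, 2050 and 2819 in nucleoplasm. Its log2 fold change was -2.46 ± 0.49 (adjusted p = 0.00742, limma), with the largest error of the 10 loci. Chromatin replicate 3 was 3.20 times the mean of replicates 1 and 2, and the log2 fold change without replicate 3 of both fractions was -2.87.

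The mt-Nd4l/mt-Nd4 locus (MSTRG.19714, chrM:9877-11544) showed the largest difference of all, with 3353, 4143 and 5973 in chromatin against 63994, 53051 and 38824 in nucleoplasm. Its log2 fold change was -3.54 ± 0.27 (adjusted p = 1.39e-04, limma), which is 11.7 fold. The mt-Nd5 locus (MSTRG.19715), the second most abundant locus of the chromosome, had 7561, 9723 and 13162 in chromatin and 140108, 110900 and 82199 in nucleoplasm, a log2 fold change of -3.46 ± 0.27. The order of the 3 nucleoplasm libraries was the reverse of that of the 3 chromatin libraries of the same number in both loci.

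mt-Nd6, transcribed in the other direction (MSTRG.19716, chrM:13552-14070), had 544, 636 and 360 normalized counts in chromatin and 1716, 1630 and 2138 in nucleoplasm. Its log2 fold change of -1.86 ± 0.23 (adjusted p = 0.00102, limma) was the smallest of the 10, a 3.63 fold difference. In chromatin the replicates ran the other way from the 9 plus-strand loci, with replicate 3 the lowest of its fraction, at 0.610 times the mean of replicates 1 and 2. In nucleoplasm replicate 3 was the highest of its fraction, as it was for mt-Nd3 among the plus-strand loci. Without replicate 3 of both fractions the log2 fold change was -1.51.

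mt-Cytb, the mitochondrially encoded subunit of complex III (MSTRG.19717, chrM:14145-15288), gave 3533, 4032 and 6900 in chromatin and 66724, 49990 and 44132 in nucleoplasm. The log2 fold change was -3.52 ± 0.29 (adjusted p = 1.83e-04, limma), next in size to that of mt-Nd4l/mt-Nd4.

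The cytochrome c oxidase genes encode the catalytic core of complex IV. mt-Co1 (MSTRG.19710, chrM:5328-6872) was the most abundant locus, with 18143, 23198 and 39760 in chromatin and 296341, 287287 and 200327 in nucleoplasm. In mean level it ranked 29 among all loci of the table in nucleoplasm and 523 in chromatin. Its log2 fold change was -3.33 ± 0.33 (adjusted p = 3.66e-04, limma), and without replicate 3 of both fractions it was -3.83. mt-Co2 (MSTRG.19711, chrM:7013-7696) had 1348, 1612 and 3023 in chromatin and 19666, 18613 and 14960 in nucleoplasm, a log2 fold change of -3.23 ± 0.31, which was -3.70 without replicate 3 of both fractions. With all libraries both genes had fold changes close to the median of the 9 plus-strand loci, -3.33.

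The locus of mt-Atp8, mt-Atp6 and mt-Co3, which joins the ATP synthase subunits and the third complex IV subunit (MSTRG.19712, chrM:7766-9390), gave 3789, 4905 and 11406 in chromatin and 64692, 60678 and 58703 in nucleoplasm. Its log2 fold change was -3.36 ± 0.40 (adjusted p = 8.11e-04, limma), and it was -3.86 without replicate 3 of both fractions. The nucleoplasm libraries differed by 1.10 fold at most, the least of the 10 loci, while the chromatin libraries differed by up to 3.01 fold.

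Per kilobase of the span, mt-Co1 stood above all other loci in both fractions, with 17498 ± 7319 normalized counts per kb in chromatin and 169138 ± 34313 in nucleoplasm (SD, n = 3). In nucleoplasm mt-Nd5 followed with 47690 ± 12432 and mt-Cytb with 46867 ± 10249, which do not differ beyond their spread. mt-Nd3 was the lowest plus-strand locus with 6671 ± 1240 in nucleoplasm and 1422 ± 1050 in chromatin, and mt-Nd6 lay below it with 3522 ± 524 and 989 ± 271. In chromatin the mt-Nd3 and mt-Nd6 levels overlapped within their spread. Reads that the alignment placed on nuclear copies, described below, are not part of these levels.

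Each locus was also taken as a share of the plus-strand total. mt-Co1 made up 42.0% ± 1.42 in chromatin and 42.4% ± 2.18 in nucleoplasm (SD, n = 3; two-sided exact permutation p = 0.8). mt-Nd1 ranged from 6.60% to 8.88% in chromatin and from 5.31% to 5.47% in nucleoplasm, without overlap. mt-Nd2 likewise ranged from 4.61% to 5.94% and from 3.47% to 3.93%. The mt-Nd4l/mt-Nd4 share went the other way, from 6.54% to 7.52% in chromatin and from 7.98% to 8.87% in nucleoplasm. The other plus-strand loci overlapped between the fractions. mt-Nd5 ranged from 14.4% to 17.5% in chromatin and from 16.9% to 19.4% in nucleoplasm, and mt-Cytb from 7.25% to 7.93% and from 7.81% to 9.25%. Shares of 1 total depend on each other, and an exact permutation test of 3 libraries against 3 cannot go below 0.1. Among the plus-strand loci mt-Nd3 differed most in relative terms, with 0.711% ± 0.252 in chromatin and 0.397% ± 0.159 in nucleoplasm, but its libraries overlapped. In a limma fit with all libraries scaled to an equal plus-strand total, chosen after the data were seen, none of these loci passed the test. The adjusted p was 0.155 for mt-Nd1, 0.139 for mt-Nd2, 0.0947 for mt-Nd3, 0.500 for mt-Nd4l/mt-Nd4 and 0.972 for mt-Co1.

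**Figure D2:**
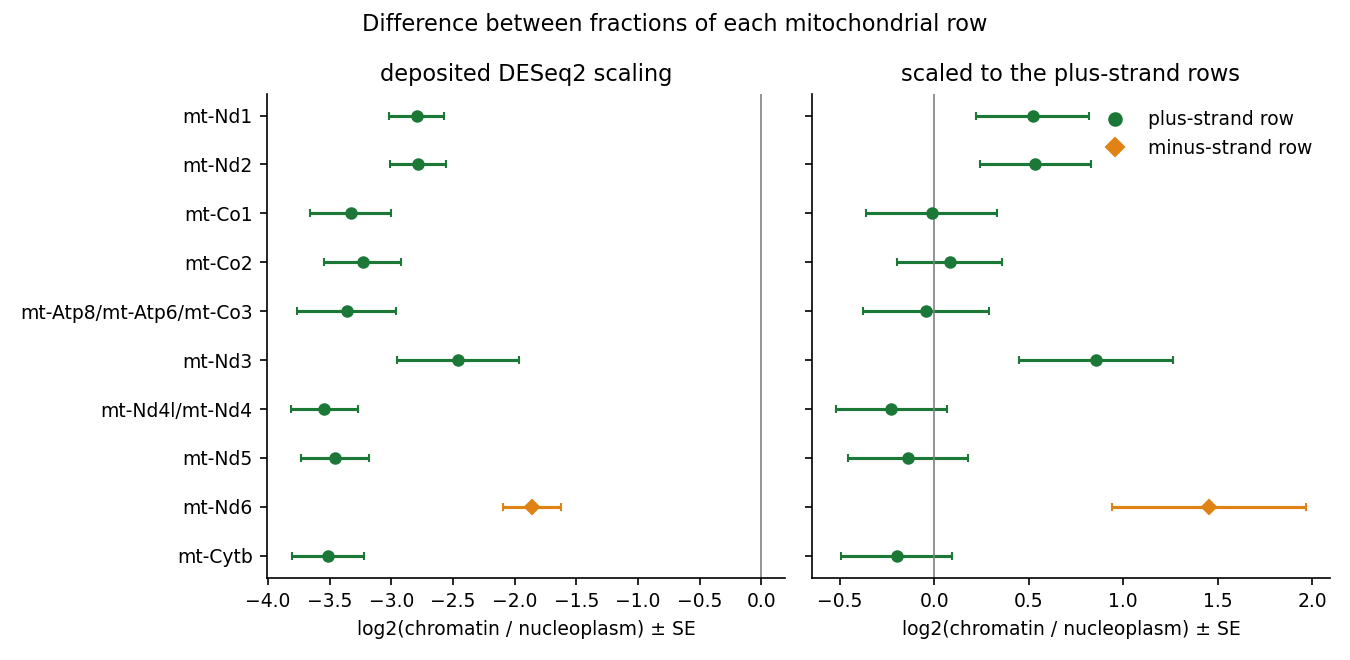
Log2 ratio of chromatin to nucleoplasm (± SE, n = 3 per fraction) of the 10 loci under the deposited scaling (left) and after scaling all libraries to an equal total of plus-strand chrM loci (right). On the left every locus is below 0; on the right the plus-strand loci lie from -0.23 to 0.86 and mt-Nd6, the minus-strand locus, lies at 1.45.

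The chrM loci together made up 0.0441%, 0.0575% and 0.0962% of the value of chromatin libraries 1 to 3 and 0.702%, 0.553% and 0.553% of nucleoplasm libraries 1 to 3. The lowest nucleoplasm share was 5.75 times the highest chromatin share. The mean shares were 0.0659% ± 0.0270 and 0.603% ± 0.0855 (SD, n = 3), a log2 difference of -3.26 with a two-sided exact permutation p of 0.1, the smallest that 3 libraries against 3 can give. Counting error alone (95% Wilson intervals) put the share of chromatin replicate 1 between 0.0437% and 0.0445%, which is far less than the spread between libraries. Without replicate 3 of both fractions the log2 difference was -3.63.

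The share is a ratio within a library and does not show which other transcripts filled the rest. The ERCC standards, added in the same volume to each fraction before RNA extraction, summed to 213760, 197879 and 183950 normalized counts in chromatin and 347971, 392823 and 261886 in nucleoplasm. Relative to them, chrM loci were at 0.211, 0.284 and 0.499 in chromatin and 2.08, 1.63 and 1.87 in nucleoplasm, a log2 difference of -2.57. Scaling to the standards kept all 10 loci lower and left 9 of them past the test, mt-Nd3 being the exception (log2 fold change -1.72, adjusted p = 0.0504, limma). It moved the median of all loci from 0.38 to 0.84, and 8.67% of all loci tested were then lower and 34.8% higher.

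Libraries of a fraction differed more on the plus-strand chrM loci than on the median abundant locus. The median coefficient of variation of the 9 plus-strand loci was 37.7% in chromatin, against a median of 11.8% over the 9121 loci with a mean of at least 1000 normalized counts. In nucleoplasm it was 20.8%, against 9.71%. The upper quartile of the abundant loci was 19.3% in chromatin, below the lowest plus-strand chrM locus at 22.4%. In nucleoplasm it was 15.8%, and the plus-strand chrM loci ran from 4.97% to 26.1%. Single loci off chrM also varied widely. Myl4, an atrial cardiomyocyte marker, had 10759, 12770 and 3184 in chromatin and 19380, 21683 and 4828 in nucleoplasm, with replicate 3 the lowest in both. The plus-strand loci moved together: chromatin replicate 3 was above replicates 1 and 2 in all 9, by 1.43 to 3.20 times their mean. The fold between libraries of the same number was largest in number 1, with a median of 16.3 over the plus-strand loci, and was 11.5 in number 2 and 5.04 in number 3. The replicate 3 libraries also had the lower cardiomyocyte marker sums and the higher fibroblast marker sums, whose part in the chrM values was not tested.

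The strand balance was measured as the share of the chrM value on the mt-Nd6 locus. In the chromatin libraries it was 1.21%, 1.13% and 0.392%, and in the nucleoplasm libraries 0.237%, 0.254% and 0.438%, both in the order of replicates 1 to 3. Chromatin replicates 1 and 2 lay well above every nucleoplasm library, while chromatin replicate 3 lay within the nucleoplasm range. The means were 0.910% ± 0.449 and 0.310% ± 0.111 (SD, n = 3), and the difference of 0.600 percentage points had a two-sided exact permutation p of 0.2, where 3 libraries against 3 cannot go below 0.1. Without replicate 3 of both fractions it was 0.922 percentage points, 2 libraries against 2, where the smallest p the design allows is 0.333.

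The ratio of mt-Nd5 to mt-Nd6, both per kilobase of span, is independent of library scaling. It was 3.10, 3.41 and 8.15 in chromatin and 18.2, 15.2 and 8.57 in nucleoplasm. All chromatin ratios lay below all nucleoplasm ratios, although both replicate 3 values lay close together (two-sided exact permutation p = 0.1, the smallest possible). After all libraries were scaled to an equal total of plus-strand chrM loci, mt-Nd6 was higher in chromatin by 1.45 ± 0.51 on the log2 scale (adjusted p = 0.0341, limma). It was the only chrM locus past the test. The scaling was chosen after the data were seen. By construction it pulls the plus-strand loci towards no difference, so their not passing is no separate result. That scaling made 68.6% of all loci higher in chromatin and moved the median of all loci to 2.94. The mt-Nd6 value is therefore to be read only against the other mitochondrial loci. This fit has no value with a replicate block or without replicate 3. The ratio of plus-strand to mt-Nd6 value was 82.0, 87.4 and 254 in chromatin and 420, 392 and 227 in nucleoplasm. Libraries of number 3 thus went the other way from numbers 1 and 2 (two-sided exact permutation p = 0.2 over all libraries). The library kit kept strand, but the table placed all ERCC value on the plus strand, so the share of reads placed on the wrong strand could not be measured here.

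**Figure D3:**
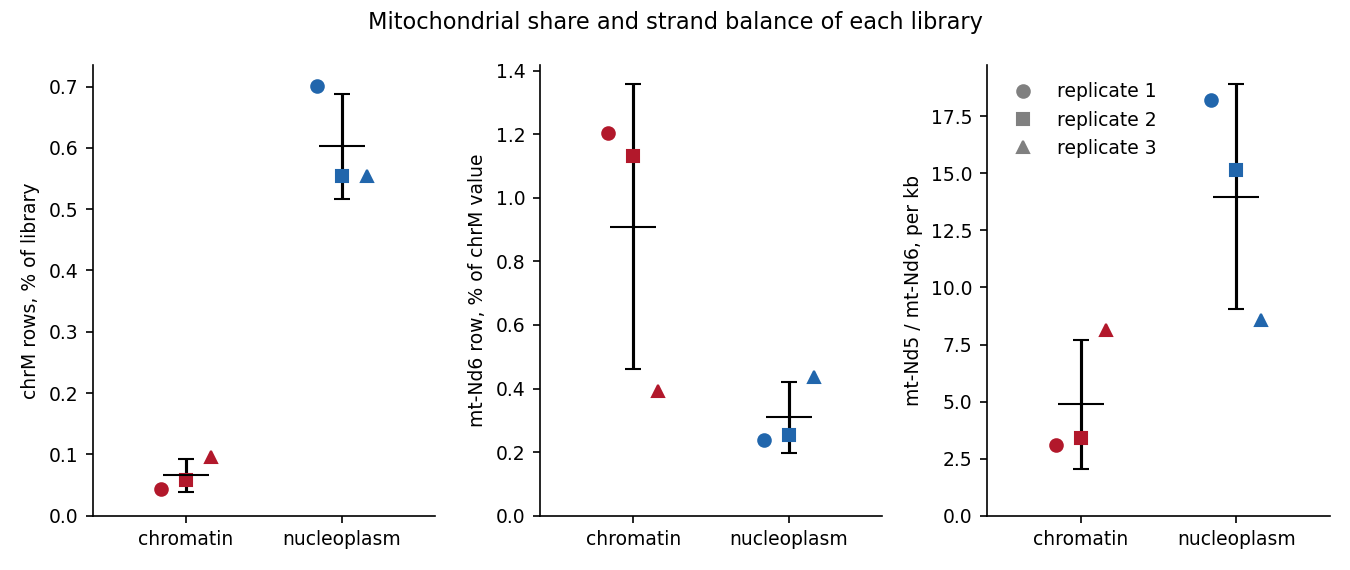
Share of each library on chrM loci (left, % of the library's value), share of the chrM value on the minus-strand mt-Nd6 locus (middle, %) and ratio of mt-Nd5 to mt-Nd6 per kilobase (right) in 6 short-read libraries, with mean ± SD of 3. The library shares do not overlap between fractions, whereas in the middle panel chromatin replicate 3 (0.392%) lies below nucleoplasm replicate 3 (0.438%).

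Nuclear DNA holds copies of mitochondrial genes that short reads can match equally well. On chromosome 1 a run of pseudogenes (Gm28439, Gm10222, Gm28438, Gm28437, Gm10925, Gm28661 and Gm29216) copied the stretch from mt-Nd4 back to mt-Co1 with identities from 99.7% to 100%. Gm28438 differs from the annotated start of mt-Nd3 at position 3 (T3C, counted from 1 at the 5′ end of the coding sequence; mt-Nd3 base first). The first 60 bases of both are shown with that position in capitals, because a read from almost anywhere in the gene matches both places (mm10; mt-Nd3 on the plus strand at chrM:9459-9518, Gm28438 on the minus strand at chr1:24613060-24613119).
mt-Nd3: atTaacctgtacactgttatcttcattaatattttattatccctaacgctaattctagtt
Gm28438: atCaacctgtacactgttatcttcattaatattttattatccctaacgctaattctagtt

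Of all 50-base windows of a gene, 100% of mt-Co2, 99.9% of mt-Co3, 99.5% of mt-Atp6, 98.8% of mt-Nd4l, 98.0% of mt-Nd3, 62.2% of mt-Nd4 and 51.1% of mt-Co1 occurred unchanged in an annotated nuclear copy. The share was 8.19% for mt-Nd2 and 7.61% for mt-Nd5. mt-Nd1, mt-Nd6, mt-Cytb and mt-Atp8 had 0% of their windows in an annotated copy. Only annotated transcripts were searched. mt-Atp8 lies between mt-Co2 and mt-Atp6, which both have copies in the chromosome 1 run, and the sequence between those copies was not searched. The results of mt-Nd1, mt-Cytb and mt-Nd6 therefore rest on windows with no identical annotated copy, and mt-Nd1 and mt-Cytb were 6.94 and 11.4 fold lower in chromatin.

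Of the short-read loci that overlap such copies, those on chromosomes 1, 2, 4, 6 and 13 carry either no gene symbol or that of the copy, and all 5 were lower in chromatin (limma), as were 20.9% of all loci tested. Copies cover 8.22% of the span of the chromosome 1 locus, 6.91% of that on chromosome 2 and 100% of the other 3. One more overlaps a copy: Stxbp4 on chromosome 11, a named gene of 161633 bases that holds Gm11512, a copy of part of mt-Co1 with 90.7% identity, over 0.410% of its span. It was higher in chromatin (log2 fold change 0.99 ± 0.10) and was not counted with the copies. The chromosome 1 locus (chr1:24565915-24616184, minus strand) had 10317, 13701 and 26380 normalized counts in chromatin and 170665, 169772 and 137641 in nucleoplasm, a log2 fold change of -3.35 ± 0.35 (adjusted p = 4.67e-04). The chromosome 2 locus over Gm13339, Gm13340 and Gm13341 (chr2:22554525-22590275, minus strand) gave 5927, 7839 and 13944 against 89702, 90849 and 63093, a log2 fold change of -3.21 ± 0.34. In both, chromatin replicate 3 was again the highest of its fraction and nucleoplasm replicate 3 the lowest. Together the 5 loci carried 0.370, 0.403 and 0.448 times the chrM value in chromatin and 0.366, 0.426 and 0.427 times in nucleoplasm, a ratio that did not separate the fractions (two-sided exact permutation p = 1).

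A chromosome 13 locus on Gm4076, a copy of mt-Nd5, had 84.4, 93.3 and 113 normalized counts in chromatin and 1619, 1400 and 912 in nucleoplasm (log2 fold change -3.71 ± 0.24). The chromosome 4 locus (chr4:80002764-80002992) runs antisense to Gm11407, also a copy of mt-Nd5. It had 171, 191 and 111 in chromatin and 889, 657 and 740 in nucleoplasm, for a log2 fold change of -2.29 ± 0.24 (adjusted p = 4.53e-04, limma). Like mt-Nd6, and unlike the loci in the sense direction on chromosomes 1, 2 and 13, its chromatin replicate 3 was the lowest of its fraction. A chromosome 6 locus on Gm20594, which resembles mt-Rnr2, varied most between libraries, with 189, 832 and 519 in chromatin and 1563, 10673 and 5957 in nucleoplasm (log2 fold change -3.41 ± 0.85). Adding the 5 loci to the chrM loci raised the shares to between 0.0604% and 0.139% in chromatin and between 0.789% and 0.958% in nucleoplasm, with a log2 difference of -3.26.

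**Figure D4:**
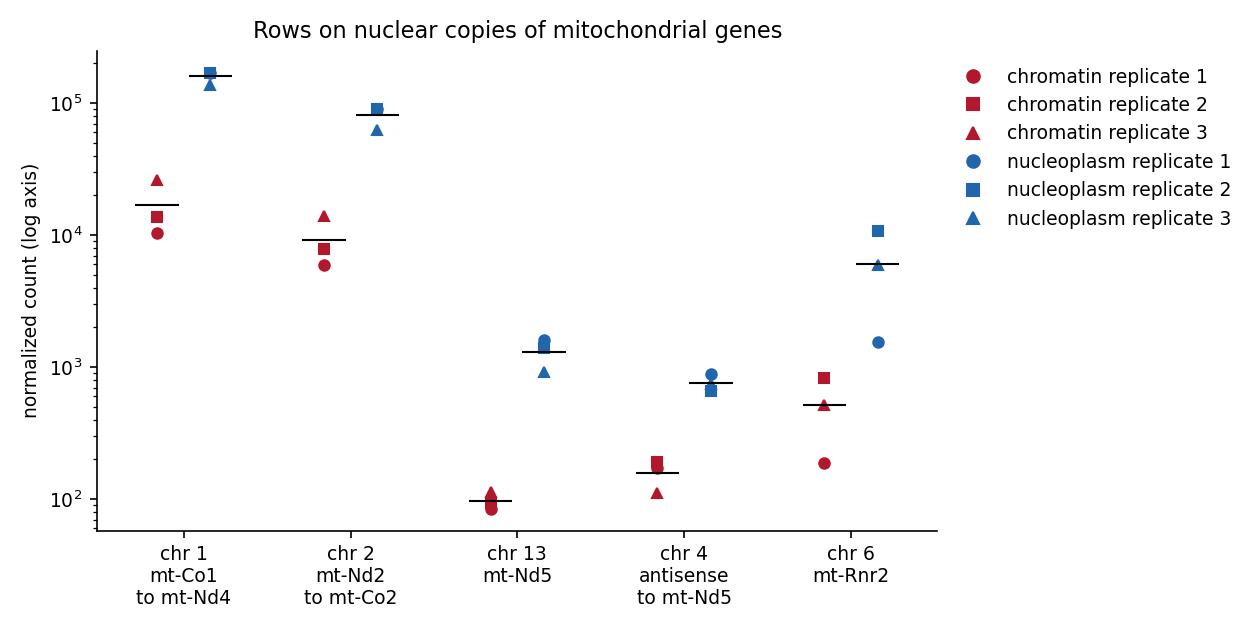
Normalized count (log axis) of 5 short-read loci on nuclear copies of mitochondrial genes in each library, without the Stxbp4 locus, which is higher in chromatin; points are libraries, shaped by replicate, and black bars are the means of 3. All 5 lie lower in chromatin, and in the locus antisense to an mt-Nd5 copy chromatin replicate 3 is the lowest chromatin point (111) while it is the highest for the sense copies of mt-Co1 to mt-Nd4, mt-Nd2 to mt-Co2 and mt-Nd5.

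Fractionation controls were measured in the same fit. Malat1, a nuclear long noncoding RNA, had 1811940, 1629140 and 1443670 normalized counts in chromatin and 117007, 112363 and 115765 in nucleoplasm, a log2 fold change of 3.82 ± 0.20. Pvt1, another nuclear noncoding RNA, had 25908, 23202 and 34487 in chromatin and 1670, 1552 and 2232 in nucleoplasm, a log2 fold change of 3.93 ± 0.20. Gapdh, which encodes a glycolytic enzyme, had 2718, 3842 and 2254 in chromatin and 12858, 14620 and 9265 in nucleoplasm. It was lower in chromatin with a log2 fold change of -2.07 ± 0.25, and B2m, the light chain of MHC class I, with one of -2.67 ± 0.13. The abundant cytosolic mRNAs Actb, Rplp0, Tpt1 and Ubb had log2 fold changes of -2.33, -2.40, -2.31 and -2.66, and no locus carried the symbol Eef1a1. Among the 9 plus-strand chrM loci, 8 had more negative log2 fold changes than any of these 6 mRNAs, and mt-Nd3 lay among them, while mt-Nd6 was less negative than all 6. The difference between a chrM locus and an mRNA was not tested.

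Nuclear genes whose products serve mitochondrial DNA, the mitochondrial ribosome or the respiratory chain were described by their counts and medians. Of 28 tested genes of mitochondrial DNA transcription, replication and RNA processing, 13 were lower in chromatin, 4 were higher and 11 did not pass the test, with a median log2 fold change of -0.31. The 46.4% that were lower compare with 20.9% of all loci tested and 43.3% of the loci averaging 1000 normalized counts or more, and the 14.3% that were higher with 26.9% and 33.7%. The share of lower genes was thus near that of abundant loci. Polg, the mitochondrial DNA polymerase (0.02), and Lrpprc, a stabilizer of mitochondrial mRNAs (-0.10), did not pass, while Grsf1, a protein of mitochondrial RNA granules, was lower (-1.23). The strongest falls were in Slirp, the RNA-binding partner of Lrpprc (-2.81), and Hsd17b10, a subunit of mitochondrial RNase P (-2.32). The 4 that were higher, named after their values were seen, were Mtpap, the mitochondrial poly(A) polymerase (2.14), Mterf2 (0.87), Tbrg4 (0.85) and Ssbp1, the single-stranded DNA binding protein of mitochondria (0.61).

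Of 67 tested genes of the mitochondrial ribosome, 58 were lower in chromatin (86.6%) and 3 were higher (4.48%), with a median of -1.57. The shares of all loci tested were 20.9% and 26.9%, and those of loci averaging 1000 normalized counts or more were 43.3% and 33.7%. Mrpl34 (-2.66) and Mrps33 (-2.46), proteins of the large and small subunit, fell most, and the 3 that were higher were Mrps6 (1.72), Mrps9 (1.70) and Mrpl1, the last named after its value was seen. Mrps28, the third most abundant, had a log2 fold change of 0.16 that did not pass the test. Of 87 tested nuclear genes of the respiratory chain, 81 were lower (93.1%), with a median of -2.14. None was higher by limma (0 also at an unadjusted p under 0.05, 0 by edgeR and 0 by DESeq2). Atp5b (-2.12) and Atp5a1 (-1.99), the beta and alpha subunits of ATP synthase, and Cox4i1 (-2.54), a complex IV subunit, were the most abundant. Uqcrq of complex III (-3.06) and Ndufa8 of complex I (-2.78) fell most. The median of the 10 chrM loci (-3.28) was more negative than that of each nuclear list. Scaled to the ERCC standards, the genes of mitochondrial DNA expression turned to 8 higher and 2 lower, those of the mitochondrial ribosome to 5 higher and 39 lower, and those of the respiratory chain to 1 higher and 68 lower. At that scaling 34.8% of all loci tested were higher and 8.67% lower. Without replicate 3 of both fractions the counts were 5 higher and 14 lower, 4 higher and 59 lower, and 0 higher and 80 lower, in the same order of lists, when 31.2% of all loci were higher and 25.4% lower (limma).

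The loci off chrM whose levels followed the chrM total most closely over the 6 libraries, by Pearson's r of log2(normalized count + 1) among those with a mean of at least 100, were Ptp4a1 (r = 0.9989), Nek2 (0.9987), Prdx1 (0.9987), Rfc5 (0.9985) and Kpna2 (0.9984). The 6 libraries form 2 groups by fraction, so r describes mainly that split. In each of the 5, chromatin replicate 3 was the highest chromatin library and nucleoplasm replicate 3 the lowest nucleoplasm library, the order seen on the chrM total. Because the 5 were chosen by r over these libraries, that order is no separate observation. Their differences were smaller: Prdx1, a peroxide-removing enzyme, had 8233, 9007 and 10908 in chromatin and 25050, 24635 and 23155 in nucleoplasm.

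The long-read libraries of chromatin RNA were made by direct cDNA sequencing, which does not keep the strand of origin, after addition of poly(A) tails. Values are TPM of transcripts from StringTie, and no second fraction was sequenced, so no difference was tested. Depth cannot be read from TPM, and the read numbers that the paper gives for the long-read replicates were not used. The 16 chrM transcripts made up 0.477% of the TPM in replicate 1 and 0.384% in replicate 2, which is 4775 and 3838 TPM. Entries that overlap nuclear copies, Stxbp4 transcripts included, held a further 2959 and 1770 TPM, of which 1795 and 832 TPM ran antisense to the copy. All 13 protein-coding genes had an entry of their own, and mt-Atp8, mt-Atp6 and mt-Co3 were listed separately.

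The highest values were those of mt-Co1, 809 and 452 TPM in replicates 1 and 2, and mt-Co2, 694 and 516 TPM. mt-Cytb had 297 and 311 TPM. The entry named mt-Atp8 had 416 and 188 TPM, that named mt-Atp6 369 and 422 TPM and that named mt-Co3 142 and 108 TPM. The listed span of mt-Atp6 (chrM:7927-9390) contains all of that of mt-Co3 (chrM:8607-9390), and the span of mt-Atp8 (chrM:7766-8606) runs through most of mt-Atp6. mt-Nd4 had the lowest value, 2.85 and 7.57 TPM, beside 214 and 180 TPM for mt-Nd4l, whose listed span of 1668 bases contains the whole of mt-Nd4. The split between such overlapping entries is the assembler's and cannot be read as a level of any of these genes. mt-Nd1 differed most between the replicates, with 114 and 24.4 TPM, a ratio of 4.69.

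The minus-strand entries took 28.7% of the chrM TPM in replicate 1 and 34.7% in replicate 2. mt-Nd6 had 356 and 380 TPM. The other 3 were assembled transcripts without a protein-coding gene on their strand. One (chrM:87-4951, 238 and 365 TPM) lay opposite mt-Rnr1, mt-Rnr2, mt-Nd1 and mt-Nd2 and on the same strand as mt-Tq, and another (chrM:7700-9391, 613 and 424 TPM) lay opposite mt-Atp8, mt-Atp6 and mt-Co3. The last (chrM:14071-16299, 164 and 160 TPM) lay opposite mt-Cytb, covered mt-Te and mt-Tp in sense and reached the end of the chromosome. The 3 entries held 21.3% and 24.7% of the chrM TPM, and no short-read locus corresponded to any of them. For comparison, entries on the minus strand took 0.405% and 0.355% of the TPM of the ERCC standards, which are single-stranded RNAs of known strand. The library method does not keep strand. The paper also describes a computational step that assigns strand to such reads, and whether these values include it was not determined. Minus-strand TPM is therefore not read as light-strand transcription, and the cause of the gap from the ERCC standards was not tested.

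**Figure D5:**
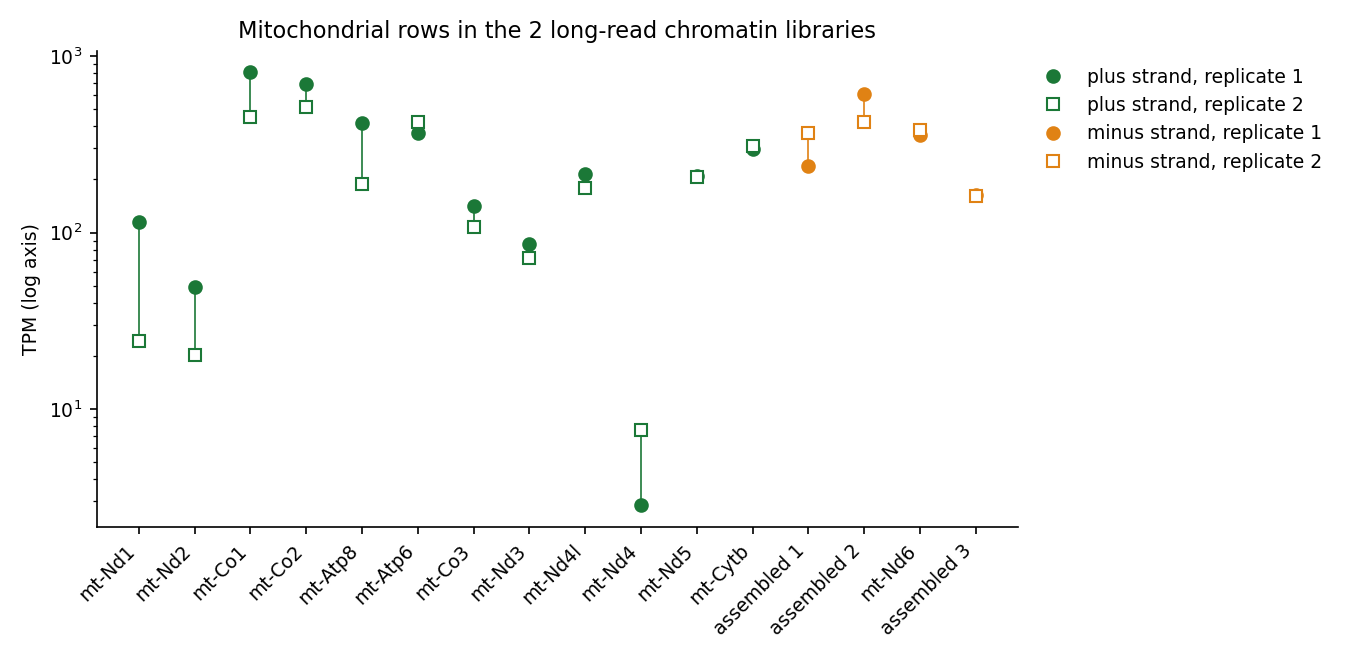
TPM (log axis) of the 16 chrM entries in the 2 long-read chromatin libraries, filled for replicate 1 and open for replicate 2, coloured by strand; assembled 1 to 3 are the entries without a protein-coding gene on their strand, in order along the chromosome. The 4 minus-strand entries lie between 160 and 613 TPM, within the range of the plus-strand genes, and mt-Nd4 is the lowest at 2.85 and 7.57 TPM.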

How the data were processed

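HL1 short-read values came from 3 libraries per fraction and long-read values from 2 chromatin libraries. The authors aligned short reads to mm10 with HISAT2 2.1.0 and assembled them with StringTie, guided by a reference annotation. They merged the assemblies, estimated every library again on them and deposited gene counts divided by DESeq2 size factors (unit signal, normalized counts). The authors deposited long reads as TPM, estimated by StringTie after minimap2.

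Because the values are normalized, log2(normalized count + 1) was fitted in limma 3.58.1 under R 4.3.3, with the variance trended on the mean. The alternatives edgeR 4.0.16 and DESeq2 1.42.0 used recovered counts (100% whole within 0.001). Single values used exact permutation tests over libraries (Python 3.11.15, numpy 2.4.6). Replicates differed by more than sampling noise (chi-square per locus 50.6 to 2477), and each was counted as a separate library. Size factors were 0.834 to 1.38. Intervals (95%, Wilson) cover counting error only, and 3 libraries per fraction limit precision. Nuclear copies were found with blastn 2.17.0 among GENCODE M21 transcripts. Sequences are from the GENCODE M21 transcripts, with mm10 coordinates. Other loci took the symbol of the same-strand gene sharing at least 0.5 of the joint span, and the locus of highest mean stood for a gene. Named genes are all chrM loci and the controls, and of each nuclear list the 3 of highest mean and the 2 with the largest change among those past the test with a mean of at least 100. The topic and the lists were chosen with earlier results of these data known; within the topic, members follow from their chromosome alone. The limma step was tested on simulated data.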

Additional observations from a re-analysis of the deposited data

How the results depend on the processing

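Over 20 alternatives for each of the 10 loci (pseudocount, filter, scaling, trend, tool, left-out libraries and block), leaving out the plus-strand scaling, log2 fold changes were all negative, from -3.97 to -1.13. The exception to the test was mt-Nd3 scaled to the ERCC standards (-1.72). Scaling to the plus-strand chrM total was an alternative chosen after seeing the data. By construction the counts then became 1 higher, 0 lower and 0 more than 4 fold lower (limma). At an unadjusted p under 0.05 they were also 1 higher and 0 lower. The locus past the test was mt-Nd6, at 1.45. The sign turned without passing the test for mt-Nd1 at 0.52, mt-Nd2 at 0.54, mt-Co2 at 0.0829 and mt-Nd3 at 0.86. Still negative but no longer past the test were mt-Co1 at -0.0136, mt-Atp8/mt-Atp6/mt-Co3 at -0.0446, mt-Nd4l/mt-Nd4 at -0.23, mt-Nd5 at -0.14 and mt-Cytb at -0.20. As this scaling moved the median of all loci to 2.94, a turned sign is read only against the other mitochondrial loci. Scaled to the ERCC standards, 8 genes of mitochondrial DNA expression were higher and 2 lower, 5 of the mitochondrial ribosome were higher and 39 lower, and 1 of the respiratory chain was higher and 68 lower, when 34.8% of all loci were higher and 8.67% lower. Leaving out libraries, the log2 difference of the chrM share ranged from -3.63 to -3.01 and the mt-Nd6 share difference from 0.452 to 0.922 percentage points, the highest without replicate 3 of both fractions.

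Replicate numbers are shared by the fractions. Deviations from the fraction means of same-numbered libraries correlated at r = 0.0975, 0.0883 and 0.222 for numbers 1 to 3. Every library correlated best with its own number. By the paper, the nuclear fractions came from 3 independent cultures, so same-numbered libraries may share a culture. The main fit and the permutation tests did not pair libraries by number. With that number as a replicate block, limma kept all 10 loci lower (10 past the test, 9 of them more than 4 fold). Depth does not limit these loci, whose smallest value was 240 normalized counts; the number of libraries does.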
